A study of Mus musculus with 26 samples.

Results

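The genes described here are the feedback inhibitors of the ERK pathway Dusp1, Dusp4, Dusp5, Dusp6, Spry1, Spry2, Spry4, Spred1 and Spred2, together with Rps6ka3, a kinase that ERK activates. They were taken by name and make up 10 of the 18193 genes that the arrays measured through probe sets naming a single gene. Where several such probe sets measured a gene, the one brightest on average over the lines was used. All 10 passed the filter on low values, which asked for a value above the median of the array on 2 or more arrays. Spry4 passed through 3 lines alone, and the other 9 were above the array median in all 26 lines.

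The study covers 26 skin cell lines of the mouse, from immortalised keratinocytes to carcinoma, with 1 Affymetrix M430 2.0 array per line. C5N and NK are keratinocyte lines (n = 2), and NK came from a p53 null mouse. P6 was derived from a papilloma. The squamous carcinoma lines without spindle pathology (n = 12) were PDV, PDVC57, B9, B9ras, B9rassmad and E4, and, from tumours of mice crossed with Spretus, SN161 (Spretus/NIH), MSCP1, MSCP5, MSC7A, MSC11B and MSC12 (Spretus/CBA). The squamous carcinoma lines with spindle morphology (n = 7) were A5, H11, D3, D3DP, MSN2, CarB and CarC. 4 lines entered no group. The spindle flag was not given for 2945CA and for MSCb1 (Spretus/CBA), and B9Smad and 1 keratinocyte line have a flag that goes against their label. All lines were untreated, grown in serum and harvested in log phase, so each value is a steady-state level in growing cells. Levels are given as log2 RMA values, with ± for the SD between lines.

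ERK is the last kinase of a cascade that carries signals from growth factor receptors to the nucleus. Active ERK raises the transcription of its own inhibitors, so their transcript levels are widely used as a readout of pathway output. In mouse skin, chemically induced tumours usually carry an activating mutation in this pathway, and keratinocytes depend on it to divide. The DUSP proteins remove phosphate from ERK itself. The Sprouty and Spred proteins act upstream, between receptor and kinase cascade.

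The cell type labels were checked against marker genes first. The mean level of 10 epithelial markers lay between 10.21 and 11.14 in the keratinocyte lines and between 4.55 and 6.62 in the spindle lines. In the non-spindle lines it ran from 4.25 to 12.27, because MSC12 (4.25), MSC7A (4.43) and MSC11B (5.06) were as low as the spindle lines. Cdh1, the cadherin of epithelial junctions, was above the array median in 9 of the 12 non-spindle lines and in 0 of the 7 spindle lines, as were Epcam and Esrp1. Krt18 was above it in all 7 spindle lines, Krt8 and Grhl2 in 6, and Krt5 and Dsp in 5, so the spindle lines kept part of the list. The mean of 10 mesenchymal markers was 8.36 to 11.41 in the spindle lines and 5.22 to 12.29 in the non-spindle lines, where MSC12 (11.36), MSC7A (12.29), MSC11B (10.54) and MSCP5 (11.35) were in or above the range of the spindle lines. Among markers of other cell types, the immune genes Ptprc and Itgam and the melanocyte genes Dct and Tyr were at or below the array median in all 26 lines, while the immune genes Csf1r and Cd3e were above it in all 26 and the melanocyte genes Pmel and Mitf in most. Mean levels were 4.73 to 5.73 for the 6 immune markers and 4.2 to 5.23 for the 5 melanocyte markers, and their part in the results was not tested. Some arrays lay very close to each other. A5 and H11 correlated at 0.993 over all probe sets, and PDV and MSCP1 at 0.991 although a Spretus cross is labelled for MSCP1 alone. Results that change when close arrays are averaged are given with both values.

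The promoters of Dusp1, Dusp5 and Dusp6 are shown because their transcripts varied widely between lines and, as described further on, correlated weakly with each other. Each stretch is the 250 bases before the annotated start of the gene in RefSeq (GRCm38.p6), written 5′ to 3′ on the strand of the gene. Capitals mark matches on either strand to the GC box (GGGCGG), the CRE (TGACGTCA) or the CArG box, the site bound by serum response factor. Those 3 genes were chosen after their values had been seen.
Dusp1, chr17:26508473-26508722, minus strand: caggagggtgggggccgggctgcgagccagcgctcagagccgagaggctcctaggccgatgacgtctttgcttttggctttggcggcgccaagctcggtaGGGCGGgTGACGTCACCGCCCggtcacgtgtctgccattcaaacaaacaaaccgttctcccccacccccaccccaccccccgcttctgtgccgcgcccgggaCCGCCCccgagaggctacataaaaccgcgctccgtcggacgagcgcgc
Dusp5, chr19:53528895-53529144, plus strand: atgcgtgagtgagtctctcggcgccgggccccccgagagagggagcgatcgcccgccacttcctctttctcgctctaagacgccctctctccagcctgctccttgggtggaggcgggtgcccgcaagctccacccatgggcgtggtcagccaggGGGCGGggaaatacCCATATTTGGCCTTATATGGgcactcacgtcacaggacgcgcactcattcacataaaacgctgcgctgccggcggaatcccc
Dusp6, chr10:99262981-99263230, plus strand: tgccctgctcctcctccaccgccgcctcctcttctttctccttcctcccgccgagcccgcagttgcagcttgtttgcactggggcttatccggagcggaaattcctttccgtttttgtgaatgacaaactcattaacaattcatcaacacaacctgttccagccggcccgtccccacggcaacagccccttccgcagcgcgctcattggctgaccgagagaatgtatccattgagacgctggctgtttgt

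The Dusp1 stretch holds 1 CRE, found in 1.55% of 32851 promoters of this length, and 3 GC boxes, a motif found in 32.7% of them. The Dusp5 stretch holds 2 CArG boxes, adjoining each other, and 1 GC box. A CArG box was found in 1.47% of promoters. The Dusp6 stretch holds none of the motifs searched. Promoters were matched for 7 of the 10 genes, and Dusp4, Spry4 and Rps6ka3 were not matched. The GC box was present in 5 of the 7. The AP-1 site (TGANTCA, 6.75% of promoters) was present in 0 of the 7, as was CCGGAA, a form of the ETS site (12% of promoters). Other and shorter forms of the ETS site were not searched, so a lack of ETS sites cannot be read from that count. No match overlapped another. These are matches of letters in a short window, not measured binding sites.

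Across the 26 lines the transcripts of the nuclear phosphatases spanned the widest ranges of the 10 genes. Dusp5, a nuclear phosphatase that acts on ERK alone among the MAP kinases, ran from 6.46 in CarB to 10.71 in B9, a 19.0-fold range. Dusp4, a nuclear phosphatase of ERK and related kinases, ran from 6.17 in C5N to 10.14 in 2945CA, a 15.6-fold range. Dusp1, the immediate early phosphatase that also acts on p38 and JNK, ran from 7.51 in B9ras to 11.44 in SN161, a 15.2-fold range. The Spred genes lay at the other end, with a range of 2.69-fold for Spred1 and 2.1-fold for Spred2. The lines at the ends differed from gene to gene, and only NK, B9, 2945CA and P6 were at an end for more than 1 of the 10 genes.

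**Figure D1:**
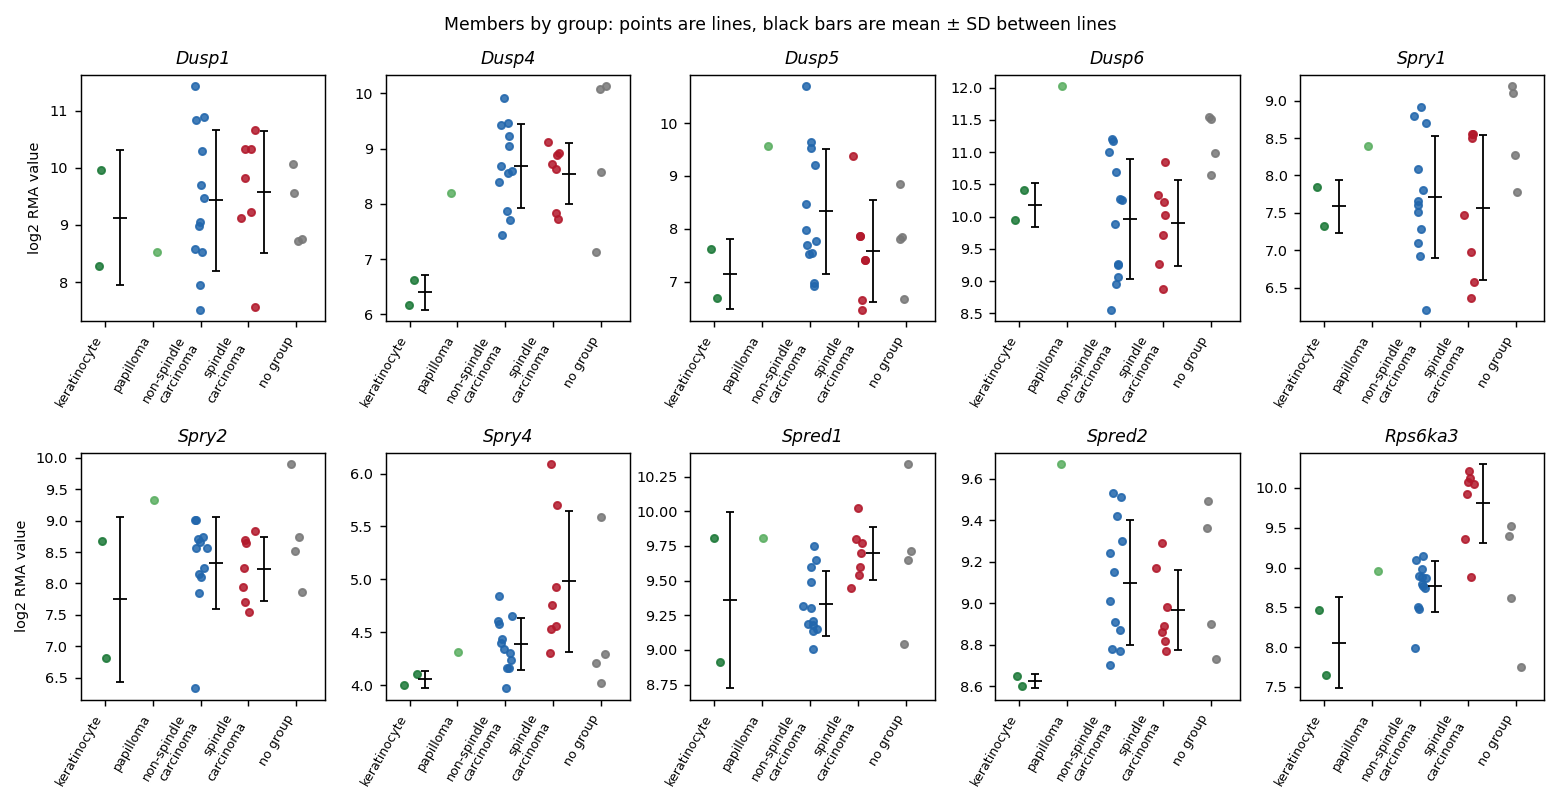
Log2 RMA values of the 10 genes (vertical axes, each with its own range) by group of lines, 1 point per line, with black bars for the mean ± SD between lines of the groups with more than 1 line. Dusp4 in the keratinocyte lines (6.17 and 6.62) lies below every other line, and Rps6ka3 in 6 of the spindle lines lies above every non-spindle line.

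Dusp4 separated the keratinocyte lines from the carcinoma lines. Its value was 6.17 in C5N and 6.62 in NK. In the non-spindle lines the lowest was 7.43 in MSC11B, the median 8.64 and the highest 9.91 in SN161, and in the spindle lines the lowest was 7.72 in A5, the median 8.72 and the highest 9.12 in CarB. Neither carcinoma group overlapped the keratinocyte lines, and both carcinoma groups covered much the same range. The third keratinocyte line, whose flags conflict with its label, had 7.13 and lay between the groups, and the papilloma line P6 had 8.19. The difference to the keratinocyte lines was 2.30 (SE 0.50, adjusted p = 0.0161, limma) for non-spindle lines, a 4.91-fold higher level, and 2.15 (SE 0.52, adjusted p = 0.0218, limma) for spindle lines. Both comparisons share the same 2 keratinocyte lines. The calls were lost without either keratinocyte line, with adjusted p of 0.23 and 0.184 without C5N and of 0.0888 and 0.102 without NK.

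Dusp5 and Dusp1 varied widely within the carcinoma groups. Dusp5 had 6.68 in C5N and 7.62 in NK. It reached 10.71 in B9, 9.65 in PDVC57, 9.53 in SN161 and 9.2 in MSC7A, against a median of 7.87 in the non-spindle lines, and 9.57 in P6. In the spindle lines its median was 7.41, and D3 (9.38) stood more than a log2 unit above the next line. High Dusp5 was therefore found in a few lines of several kinds, and the groups overlapped throughout. The spindle lines differed from the non-spindle lines by -0.76 (SE 0.50, adjusted p = 0.395, limma), which did not pass the threshold. The non-spindle lines differed from the keratinocyte lines by 1.18 (SE 0.80, adjusted p = 0.651, limma), about as much as the SD of 1.19 among the non-spindle lines. Dusp1 gave 9.13 ± 1.19 in the keratinocyte lines (n = 2), 9.44 ± 1.23 in the non-spindle lines (n = 12) and 9.58 ± 1.07 in the spindle lines (n = 7), so that the spread within a group was several times the difference between groups.

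Dusp6, the cytoplasmic phosphatase that is specific for ERK and is used as a marker of ERK activity, was highest in the papilloma line at 12.03. It had 9.94 in C5N and 10.42 in NK, a range of 8.55 to 11.2 with a median of 10.08 in the non-spindle lines, and a range of 8.87 to 10.84 with a median of 10.02 in the spindle lines. No carcinoma line of either group reached the level of P6, while 2 lines outside the groups, MSCb1 (11.51) and the keratinocyte line with conflicting labels (11.55), came nearest to it. The spindle and non-spindle means differed by -0.07 (SE 0.38, adjusted p = 0.942, limma). The lowest values among the non-spindle lines belonged to MSC12 (8.55), MSC7A (8.95) and MSC11B (9.06), the lines with the lowest mean of the epithelial markers. Other lines did not all follow that order. Of the spindle lines, also low in those markers, A5 had 8.87 but CarB 10.33. MSCP5 and E4, with marker means of 10.49 and 10.22, had 9.25 and 9.26.

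Among the Sproutys, which block the passage of the signal from receptor tyrosine kinases, Spry1 and Spry2 were well above background by the probe sets used. The other Spry2 probe set, 1421656_at, was below the array median in all 26 lines and correlated at 0.48 with the one used. Spry1 gave 7.59 ± 0.36 in the keratinocyte lines, 7.71 ± 0.81 in the non-spindle lines and 7.57 ± 0.97 in the spindle lines. Its lowest value was 6.2 in B9 and its highest 9.2 in B9Smad, a line of the same name family. Spry2 gave 6.82 in NK and 8.67 in C5N, and 8.33 ± 0.72 in the non-spindle lines and 8.23 ± 0.51 in the spindle lines. MSCP5 (6.33) was far below the other carcinoma lines, and 2945CA (9.9) and P6 (9.33) were the highest. Neither gene differed between groups beyond the spread between lines in the limma tests, with adjusted p from 0.659 to 0.995 in the comparisons of the 3 groups.

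Spry4 was near background in most lines. Its value was 4.0 in NK, 4.11 in C5N and 3.97 to 4.84 in the non-spindle lines, and it exceeded the array median in CarC (6.09), CarB (5.7) and 2945CA (5.59) alone. Another Spry4 probe set, 1445669_at, gave a clearer contrast, with 7.5 in CarB, 7.43 in CarC and 7.42 in 2945CA, 5.64 in D3, and 3.13 to 4.24 in the non-spindle lines. The high lines were thus a pair of spindle lines from 1 name family and 1 carcinoma line without a stated spindle flag. The mean difference between spindle and non-spindle lines by the probe set used was 0.59 (SE 0.20, adjusted p = 0.131, limma) and was not called. Near background a fold change on this scale is compressed.

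The Spred proteins hold neurofibromin at the membrane and thereby dampen the cascade. Spred1 was 8.91 in NK and 9.81 in C5N, 9.33 ± 0.23 in the non-spindle lines and 9.7 ± 0.19 in the spindle lines. The difference between the carcinoma groups was 0.36 (SE 0.13, adjusted p = 0.14, limma), with an unadjusted p of 0.011, and the groups overlapped between 9.45 and 9.75. Its highest value, 10.34, was in MSCb1. Spred2 was 8.6 in NK and 8.65 in C5N, below all 12 non-spindle lines (8.7 to 9.53) and all 7 spindle lines (8.77 to 9.29). The step to the nearest carcinoma line, MSCP5, was small, and neither difference passed the test (0.48 and 0.35, adjusted p = 0.337 and 0.385, limma). The separation was seen by the probe set used alone. In every other Spred2 probe set the keratinocyte lines overlapped both carcinoma groups, and 1423001_at correlated at only 0.02 with the one used.

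Rps6ka3 encodes RSK2, which ERK phosphorylates and which carries the signal on to nuclear and cytoplasmic targets. Its value was 7.65 in NK, 8.46 in C5N and 8.96 in P6. The non-spindle lines ran from 7.99 in SN161 to 9.15 in MSC11B with a median of 8.83. Among the spindle lines A5 (8.88) lay inside that range, H11 (9.36) just above it, and CarC (9.92), CarB (10.05), MSN2 (10.08), D3 (10.13) and D3DP (10.21) well above. Of the lines outside the groups, 2945CA (9.52) and B9Smad (9.39) were above all non-spindle lines, and the keratinocyte line with conflicting labels (7.75) was near NK. The 2 lowest spindle lines were A5 and H11, whose arrays are the closest pair of all.

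The higher Rps6ka3 level in spindle than in non-spindle lines was known when the gene was put among the members, so it stands here as a description. The means were 9.8 ± 0.49 and 8.76 ± 0.31, a difference of 1.04 (SE 0.19, adjusted p = 0.044, limma) or 2.06-fold. It was the only one of the 10 genes called in this comparison, in which 0.0633% of the 12641 genes tested were called. The call was lost without any 1 of 13 of the 21 lines (PDV, PDVC57, SN161, B9ras, B9rassmad, MSCP1, E4, D3, D3DP, MSN2, H11, CarC and CarB), with adjusted p up to 0.101. The call was also lost with close arrays averaged (difference 1.12, adjusted p = 0.278), with name families averaged (1.00, adjusted p = 0.461), with the families fitted as a random block (1.03, adjusted p = 0.111), with lines placed by cell type label (0.95, adjusted p = 0.152) and with no filter (adjusted p = 0.0514), all with limma. The difference itself stayed between 0.8 and 1.2 in every setting run. Without MSC12, MSC7A and MSC11B, the non-spindle lines lowest in epithelial markers, it was 1.03 (adjusted p = 0.00423, limma), in a fit that called 1954 genes in place of 8. Those 3 lines had Rps6ka3 values of 8.48, 8.51 and 9.15, inside the range of the other non-spindle lines or just above it, and MSCP5, which also had high mesenchymal markers, had 9.09. Against the keratinocyte lines the spindle lines were higher by 1.75 (SE 0.32, adjusted p = 0.00305, limma), a call lost without NK (adjusted p = 0.11), and the groups did not overlap.

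The other 2 Rps6ka3 probe sets did not show the same contrast equally. By 1452383_at, which lies near background, the spindle lines had 4.48 to 5.87 and the non-spindle lines 3.56 to 4.67, a difference of 0.99. By 1427299_at the spindle lines had 7.55 to 8.39 and the non-spindle lines 7.13 to 8.68, a difference of 0.38. In 1427299_at the highest non-spindle lines were MSC12 and B9, so that this probe set ordered the non-spindle lines differently from the one used. Over 26 lines the probe set used correlated at 0.83 with 1452383_at and at 0.65 with 1427299_at. Spred1, with 8 probe sets, varied more still, from -0.21 to 0.95, and the lowest of these came from a probe set below the array median in every line.

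**Figure D2:**
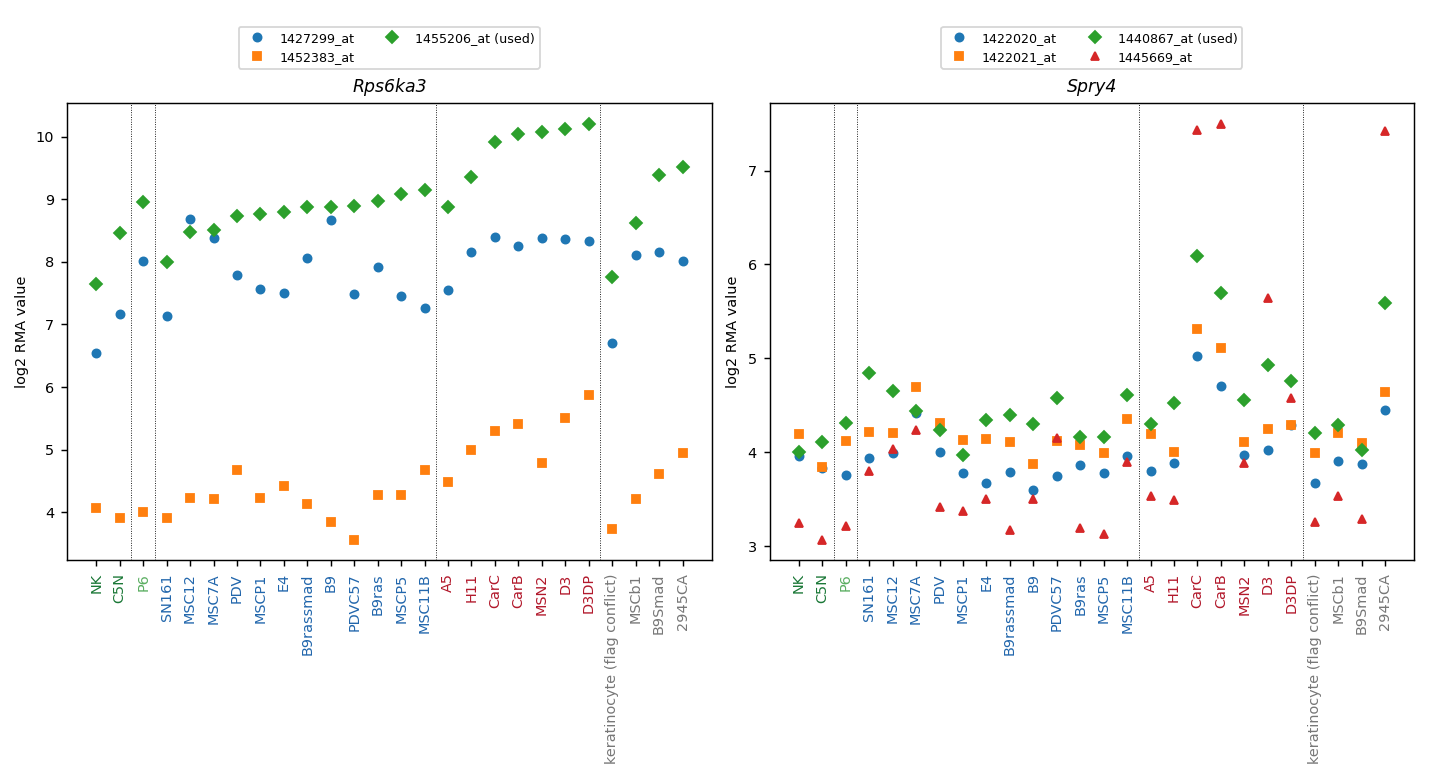
Log2 RMA values of every single-gene probe set of Rps6ka3 (left) and Spry4 (right) in the 26 lines, ordered by group and within a group by the Rps6ka3 probe set used, with label colours for the groups and dotted lines between them. Levels of different probe sets are not comparable with each other, only lines within a probe set are. For Rps6ka3 the spindle lines rise in 2 of the probe sets, and for Spry4 CarB, CarC and 2945CA stand apart in 1445669_at.

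Counted over all 10 genes, few differences between the groups passed the test. Between non-spindle and keratinocyte lines 1 of 10 was called, Dusp4, where 2.02% of all genes tested were called. The median difference of the 10 was 0.41, against 0.02 over all genes tested. An unadjusted p under 0.05 was reached by 3 of the 10 and by 12% of all genes. By the probe sets used, Dusp4 and Spred2 were higher without overlap, as were 2.69% of all genes. Between spindle and keratinocyte lines 2 of 10 were called, Dusp4 and Rps6ka3, where 5.35% of all genes were called. Nothing is read from these counts, because the members, Rps6ka3 above all, were chosen with results known. The median difference was 0.44, against 0.04 over all genes tested. By the probe sets used, the groups did not overlap for Dusp4, Spred2, Rps6ka3 and Spry4, all higher in the spindle lines. Of all genes tested, 12.9% were higher without overlap. Spry4 adds nothing to the members without overlap, nor to the count by unadjusted p that follows. It passed the filter through lines in which it was high and was at background in the keratinocyte lines. An unadjusted p under 0.05 was reached by 3 of the 10 and by 20.7% of all genes. Between spindle and non-spindle lines the median difference was -0.08, against 0.04 over all genes, and 3 of 10 genes had an unadjusted p under 0.05, against 20.7% of all genes. Apart from Rps6ka3 those were Spry4, which passed the filter through lines in which it was high, and Spred1. These 3 comparisons share their lines.

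Within the non-spindle lines, the 6 lines from Spretus crosses were set against the other 6. None of the 10 genes was called, and limma called 0 of 12641 genes (0%), with 1383 genes (10.9%) at an unadjusted p under 0.05. Without MSCP1, the line whose array lies close to PDV, 163 genes were called, and still 0 of the 10. Dusp6 came nearest among the 10. The Spretus-cross lines had 8.55 in MSC12, 8.95 in MSC7A, 9.06 in MSC11B, 9.25 in MSCP5, 9.89 in SN161 and 10.69 in MSCP1. Of the other lines E4 had 9.26, and the rest ran from 10.26 in B9rassmad to 11.2 in PDV. The groups overlapped through MSCP1, SN161 and E4, and the 3 lowest lines were those lowest in epithelial markers. The difference was -1.13 (SE 0.41, adjusted p = 0.417, limma), and it was -0.58 without those 3 lines. Dusp1 ran the other way, higher by 1.20 in the Spretus-cross lines (SE 0.59, adjusted p = 0.474, limma), which did not pass the threshold.

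To describe the feedback genes of a line together, an index was formed as the mean over the 9 feedback genes of the log2 value minus the mean of that gene over all 26 lines. It carries no p-value, because the genes were chosen with results known. The keratinocyte lines had -0.57 (NK) and -0.58 (C5N). The non-spindle lines ran from -0.58 in MSC11B to 0.57 in SN161 with a mean of -0.01 ± 0.36, and the spindle lines from -0.27 in A5 to 0.18 in CarB with a mean of -0.04 ± 0.16. Both carcinoma groups thus had nearly the same mean and lay above the keratinocyte lines by 0.56 and 0.54, but MSC11B was as low as the keratinocyte lines. Of the 9 genes Dusp4 added most to both gaps, with differences of 2.3 and 2.15. The next largest were 1.18 for Dusp5 in the non-spindle lines and 0.92 for Spry4 in the spindle lines. Nothing is read from the Spry4 value, because Spry4 passed the filter through lines in which it was high, CarB and CarC among them. P6 had 0.49. The highest index, 0.81, was in 2945CA, the only line in which 9 of the 9 genes were above their median over the lines.

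**Figure D3:**
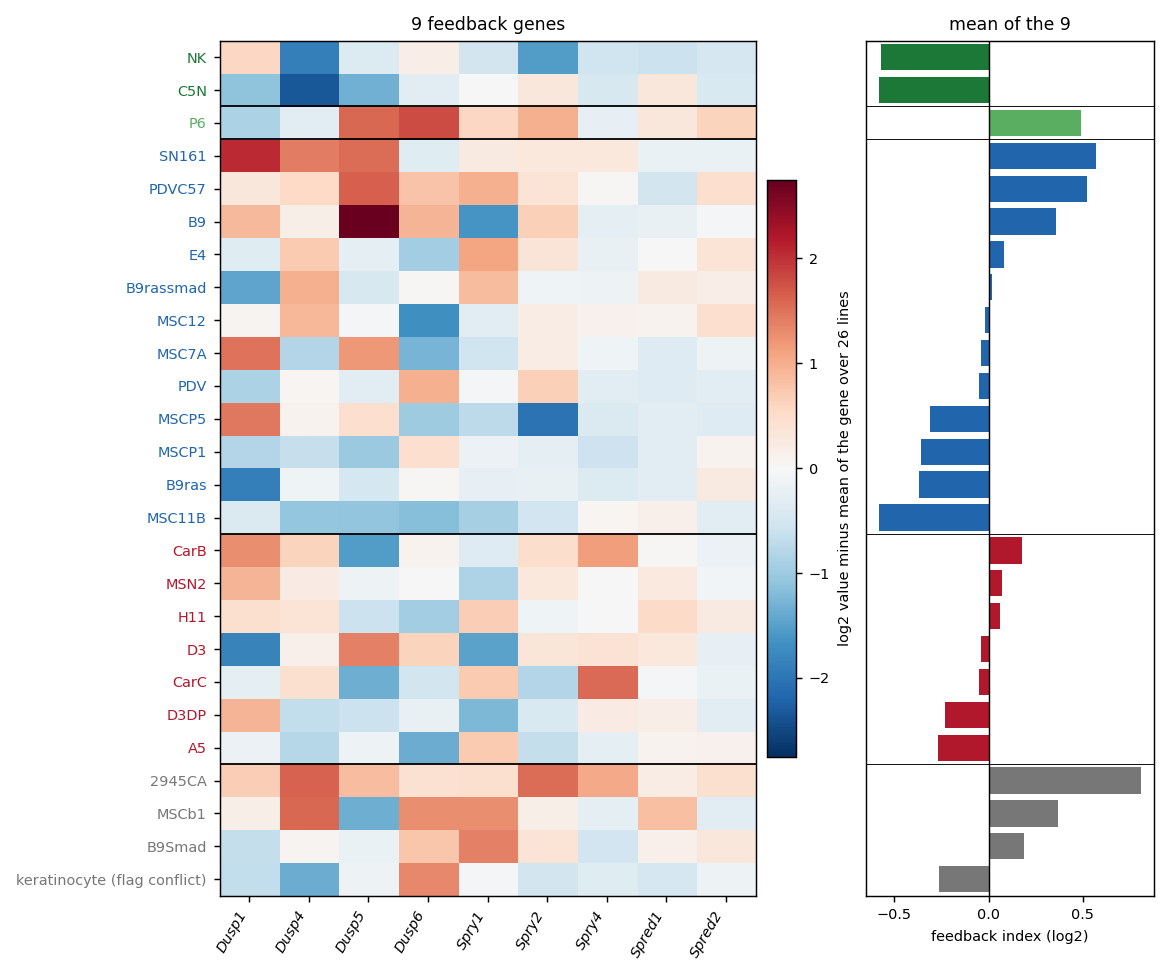
Left, log2 value of each of the 9 feedback genes minus its mean over 26 lines (colour scale) for each line, ordered by group and index, with label colours for the groups. Right, the feedback index of each line, the mean of the 9 values. The highest gene differs between lines with a high index (Dusp1 in SN161, 2.05, Dusp5 in B9, 2.71, and Dusp6 in P6, 1.8), Dusp5 is raised in all 3 of them, and 2945CA (0.81) is raised in all 9 genes.

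Lines of like index differed in their highest gene, although Dusp5 was high in several. SN161 (0.57) had its highest deviation in Dusp1 (2.05), with Dusp5 at 1.53, and was slightly below the mean in Dusp6 (-0.33). PDVC57 (0.52) had its highest in Dusp5 (1.65), and P6 (0.49) in Dusp6 (1.8), with Dusp5 at 1.57 and Dusp1 below the mean (-0.86). MSCb1 (0.37) combined high Dusp4 (1.58), Dusp6 (1.28) and Spry1 (1.27) with low Dusp5 (-1.34). B9 (0.36) combined the highest Dusp5 of all lines (2.71) with the lowest Spry1 (-1.63). High Dusp5 was thus shared by SN161, PDVC57, P6 and B9 but not by MSCb1, and the other high genes differed from line to line.

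Correlations between the 9 feedback genes over the 26 lines were weak. They are given as a description, with no p, since the lines share families and some arrays are close. The 36 pairs had a mean Pearson r of 0.136 and a median of 0.19, and 25 pairs were above 0. The mean over all pairs of tested genes was 0.00794. No pair of the feedback genes reached 0.5, although 3 pairs did with name families averaged and 1 with close arrays averaged, with 0.58 the highest in both. The highest was Spry2 with Spred2 (0.49), followed by Spry1 with Spred2 (0.47) and Dusp4 with Spry4 (0.44). The lowest was Dusp1 with Dusp6 (-0.28). Without 2945CA the mean r fell to 0.096, and with each name family averaged it was 0.194. Rps6ka3 correlated at 0.56 with Spry4, at 0.44 with Spred1 and at -0.20 to 0.28 with the other feedback genes. The correlation with Spry4 is not a result separate from the group difference. Rps6ka3 was chosen with its level in spindle lines known, and Spry4 passed the filter through CarB, CarC and 2945CA.

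**Figure D4:**
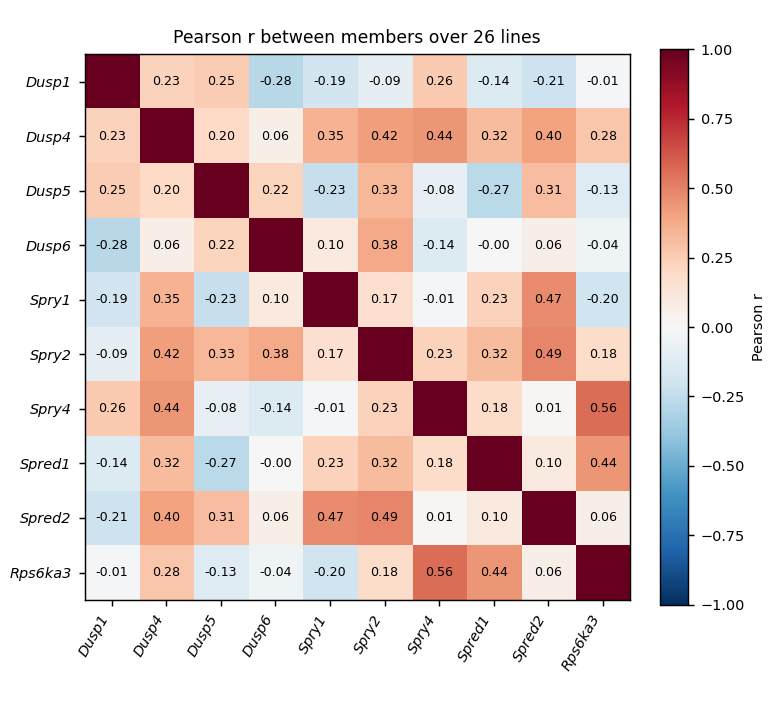
Pearson r between the 10 genes over 26 lines (colour scale, values printed in the cells). Of the 36 pairs of feedback genes 25 lie above 0 and 0 reach 0.5, with Spry2 and Spred2 (0.49) the highest and Dusp1 and Dusp6 (-0.28) the lowest.

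The feedback genes were next set against 16 other transcripts known to be induced by ERK, such as Fosl1, Egr1, Hbegf, Phlda1 and Etv5. The mean of those 16, centred in the same way, correlated at 0.63 with the feedback index over 26 lines, and at 0.5 without 2945CA and SN161, the lines farthest from the median index. Dusp5 followed it most closely of the 10 genes, with r 0.79 and rho 0.74, and r 0.71 without B9 and PDVC57. Of the 16 it correlated most with Hbegf, a ligand of the EGF receptor (0.79), Plaur, the urokinase receptor (0.7), and Phlda1 (0.66). How all other genes correlated with Dusp5 was not examined, so these values have no background to be set against. Spry2 reached 0.47 (rho 0.63), and r 0.62 without MSCP5 and NK, and correlated most with Ccnd1, cyclin D1 (0.68). Spred2 reached 0.45, Dusp4 0.42, Dusp6 0.31, Dusp1 0.21, Spry4 0.01 and Spry1 -0.11. Spred1 had -0.35 and Rps6ka3 -0.10. The points share the arrays and their normalisation, and no p is given.

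**Figure D5:**
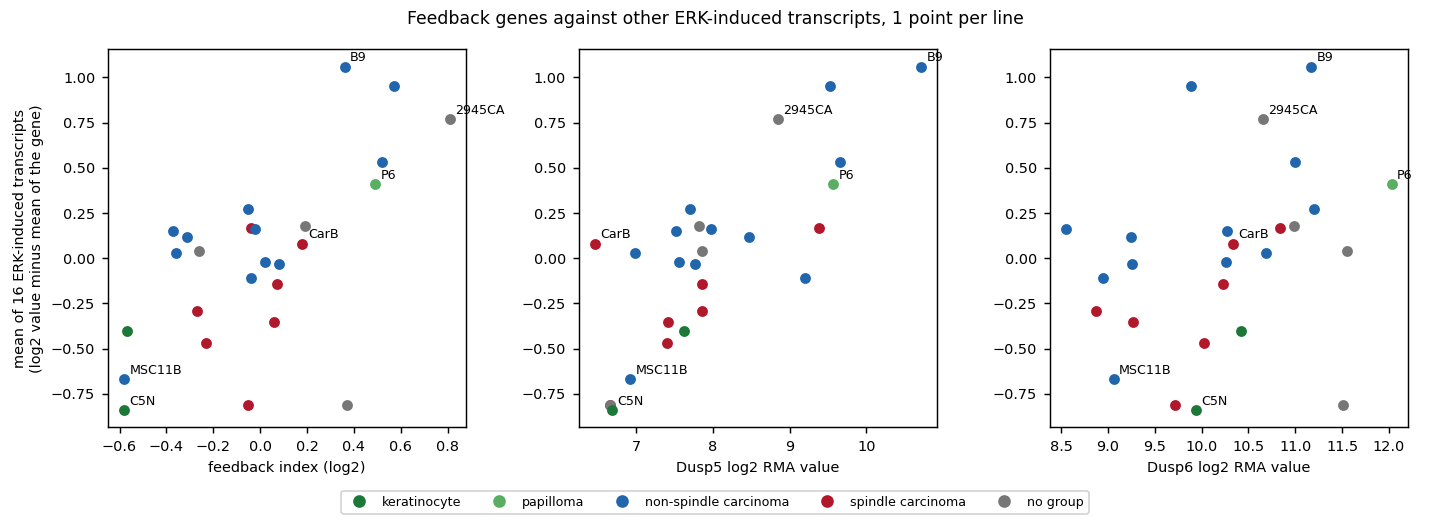
Mean of 16 ERK-induced transcripts, as log2 value minus the mean of each gene over 26 lines (vertical axis), against the feedback index, the Dusp5 value and the Dusp6 value (horizontal axes, log2), 1 point per line coloured by group. The points follow Dusp5 (r 0.79) more closely than Dusp6 (r 0.31), and B9 is at the top of the vertical axis in all panels.

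Other genes of the pathway were examined in lists chosen with earlier results of these data known. All their calls against keratinocytes rest on the same 2 lines, and they were not examined with either of those lines left out. Of the 16 ERK-induced transcripts, 3 were called higher in non-spindle than in keratinocyte lines. They were Fosl1, an AP-1 subunit (3.21, SE 0.50, adjusted p = 0.00151, limma), the EGF receptor ligand Ereg (3.81, SE 0.80, adjusted p = 0.0124, limma) and the ETS factor Etv5 (1.83, SE 0.48, adjusted p = 0.0491, limma). The median difference of the 16 was 0.68, against 0.02 over all genes tested, of which 2.02% were called. Between spindle and keratinocyte lines 3 of the 16 were higher, Fosl1 (3.76), Etv5 (1.96) and Ereg (3.13). Ereg differed widely between the keratinocyte lines themselves, which had 3.43 and 7.77. Mafk, a small Maf factor, was called lower, with a difference of -2.28, but the keratinocyte lines had 8.72 and 12.11 and the spindle lines 7.87 to 8.33, so 1 keratinocyte line carries most of it. Over all genes tested the median difference was 0.04 and 5.35% were called, and the median difference of the 16 was 0.23. Between spindle and non-spindle lines 0 of the 16 were called, where 0.0633% of all genes tested were. Of the 16, 3 had an unadjusted p under 0.05 (limma), against 20.7% of all genes. The median difference of the 16 was -0.45, against 0.04 over all genes tested. Ier3, an immediate early response gene, was at -1.35 (SE 0.46, adjusted p = 0.131, limma).

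Among 19 tested genes for other inhibitors of the pathway, Lrig1, a membrane protein that promotes degradation of EGF receptors, was the only one called. It was higher than in keratinocytes by 2.31 (SE 0.44, adjusted p = 0.00628, limma) in non-spindle lines and by 2.48 (SE 0.46, adjusted p = 0.00396, limma) in spindle lines. Of all genes tested, 2.02% and 5.35% were called in those comparisons. In them 5 and 10 of the 19 had an unadjusted p under 0.05 (limma), against 12% and 20.7% of all genes. The median differences of the 19 were 0.47 and 0.55, against 0.02 and 0.04 over all genes tested. Between spindle and non-spindle lines 4 of the 19 had an unadjusted p under 0.05, against 20.7% of all genes. Dusp7, a cytoplasmic ERK phosphatase related to Dusp6, was at -0.73 in spindle against non-spindle lines (SE 0.23, adjusted p = 0.116, limma) and was not called. Of 11 genes of the receptor-to-ERK cascade, Gab1, a docking protein for receptor kinases, was lower than in keratinocytes in both carcinoma groups (-1.95 and -1.93, SE 0.38 and 0.40, adjusted p = 0.00811 and 0.00798, limma). The keratinocyte lines, shared by both comparisons, themselves differed widely, with 8.31 and 9.81. The non-spindle lines had 6.42 to 7.78 and the spindle lines 6.55 to 7.75. Between spindle and non-spindle lines 0 of the 11 were called or had an unadjusted p under 0.05. Of 6 other kinases activated by ERK, 0 were called in any comparison, with 1 at an unadjusted p under 0.05 in each. Of all genes tested, 10.9% to 20.7% had such a p (limma). Mknk2 differed by 0.51 (SE 0.21, adjusted p = 0.186, limma) between spindle and non-spindle lines, against the 1.04 of Rps6ka3. Between Spretus-cross and other lines 0 genes of the 4 lists were called, and the nearest were Gab1 (0.61), Rps6ka6 (-2.24), Ccnd1 (-0.75) and Dusp7 (-0.56).

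Some feedback genes differed widely between lines of 1 name family, and those with the largest differences are given here. Taken without sign, the median difference of the 10 genes from B9 was 0.57 in B9ras, 0.78 in B9rassmad and 0.35 in B9Smad. Over all genes tested it was 0.38, 0.48 and 0.44. For PDV and PDVC57 it was 0.41, against 0.3 over all genes, and for CarB and CarC 0.29, against 0.3. A shared name did not always mean close arrays. Over all probe sets B9ras correlated at 0.99 with PDV, and D3DP at 0.987 with MSN2. B9 stayed below 0.98 with each line of its family, and D3 below 0.98 with D3DP, while B9ras and B9Smad reached 0.984. B9 had 10.71 for Dusp5, while B9ras, B9rassmad and B9Smad had 7.52, 7.55 and 7.81. For Dusp1, B9 had 10.3 against 7.51, 7.94 and 8.75 in the same lines. For Spry1 the order was turned, with 6.2 in B9 and 7.6, 8.7 and 9.2 in the others. B9 was thus high in Dusp1 and Dusp5 and low in Spry1, a pattern not shared by the other 3 lines. Dusp4, the other nuclear phosphatase, was 8.68 in B9 and 8.39, 9.47 and 8.58 in those lines. D3 and D3DP differed in Dusp1 (7.56 and 10.33) and, the other way, in Dusp5 (9.38 and 7.4), while their Rps6ka3 values were 10.13 and 10.21. Each line was measured on 1 array, so differences between single lines have no replicate check.

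Genes most like the members in pattern were taken as the 3 with the highest Pearson r over 26 lines among 12631 other genes tested, as a description. For Dusp6 they were Galnt4 (0.74), Zfp219 (0.72) and Ndufc2 (0.71). For Rps6ka3 they were Ddx50 (0.76), Fdx1 (0.76) and Dut (0.73). For the feedback index they were Pnpla2 (0.76), Cttn (0.7) and Sigirr (0.7). None of the feedback genes could be among them, since members were left out of the search.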

How the data were processed

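The log2 values were deposited by the authors, who used RMA per the submitters' processing notes. The RMA version is not given in the sources used here. RMA adjusts background, quantile-normalises the arrays and summarises each probe set, so a change in total RNA cannot be seen. Of 45037 probe sets, 34945 named 1 gene, 932 several and 9160 none here, by GEO's platform annotation. Symbols, chromosomes and promoters came from RefSeq (GRCm38.p6).

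Group means of 21 lines (2 keratinocyte, 12 non-spindle and 7 spindle) were fitted with limma 3.58.1 (lmFit, eBayes, R 4.3.3). The Spretus-cross comparison used the 12 non-spindle lines. Benjamini-Hochberg adjustment ran over 12641 genes, and an adjusted p under 0.05 was called. The labels name no repeat culture of any line. Each p-value therefore reflects spread among lines, and the number of arrays limits the precision.

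The members and lists were chosen with earlier results of these data known. Named genes were every member, up to 3 called genes of each list per comparison by lowest p (all where 5 or fewer, Ereg being added after its value was seen; the 1 with the lowest p where none was called), and the 3 most like Dusp6, Rps6ka3 and the index. Transcripts most correlated with a member were named after their values were seen.

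The fit was tested on simulated data. Alternatives were the filter, the probe set rule, grouping by label, name families or close arrays averaged, a random block, the variance prior, and lines left out.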

Additional observations from a re-analysis of the deposited data

Results flagged for a closer look

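Several values stood above the range of the grouped lines in lines that entered no comparison. Dusp4 was 10.14 in 2945CA and 10.09 in MSCb1, above all 22 lines with a group. Spry2 was 9.9 in 2945CA. Spry1 was 9.1 in MSCb1 and 9.2 in B9Smad, and Spred1 was 10.34 in MSCb1, each also above all 22 grouped lines. 2945CA and MSCb1 have no stated spindle flag and the labels of B9Smad conflict, so no group was compared. Each of these values comes from 1 array.

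A probe set of Spry4 that was not used, 1445669_at, was more than 2 log2 units above both keratinocyte lines (3.07 and 3.25) in 4 lines. It gave 7.5 in CarB, 7.43 in CarC, 7.42 in 2945CA and 5.64 in D3. In the spindle group 11 sets of values were tested for a single line far from the others, and 0 met the test.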

How the results depend on the processing

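No paired analysis was possible because replicate numbers follow the order of deposition and the labels pair no lines. Close arrays averaged and single lines left out of the correlation were chosen after seeing the data. The cause was not tested for any change given here. Array signal limits Spry4 most, which was above the array median in 3 lines.

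Of the 10 genes, 0 were called between spindle and non-spindle lines with close arrays averaged, by cell type label, with name families averaged or as a random block, or with no filter. The genes called there numbered 8 as reported, and 0, 0, 0, 2 and 3 under those settings, 5 with the mean of all probe sets, and 1954 without MSC12, MSC11B and MSC7A. With close arrays averaged, 150 genes were called between non-spindle and keratinocyte lines and 323 between spindle and keratinocyte lines. The mean correlation of 0.136 was 0.194 with name families averaged. The 4 differences of the feedback index moved by less than the spread between lines under each setting run.

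Leaving out 1 line at a time gave 0 to 1 of the 10 genes and 2 to 471 genes called between spindle and non-spindle lines, 0 to 1 and 147 to 352 between non-spindle and keratinocyte lines, and 0 to 2 and 258 to 765 between spindle and keratinocyte lines. The 471 came without MSC11B, and 183 and 179 without MSC7A and MSC12. Without MSCP1 the Spretus-cross comparison called 163 genes, against 0 to 0 of the 10 members. A lone keratinocyte line was assumed to vary like the other groups.

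The signs that turned belonged to differences that were not called. Between spindle and non-spindle lines Dusp1 (0.14) was -0.24 with close arrays averaged, -0.01 by cell type label and -0.01 with families averaged, and Dusp6 (-0.07) was 0.21 with close arrays and 0.10 with families averaged. Between non-spindle and keratinocyte lines Spred1 (-0.03) was 0.00 with close arrays averaged and 0.18 by label, and Dusp6 (-0.22) was 0.15 without MSC12, MSC11B and MSC7A. Between spindle and keratinocyte lines Spry1 (-0.02) was 0.12 by label, 0.12 with families averaged and 0.02 with the block, and Spred1 (0.33) was -0.01 with the mean of probe sets. In the Spretus-cross comparison Spred1 (0.04) was -0.17 with the mean of probe sets and -0.08 without those 3 lines, where Spry4 (0.11) was -0.01. With 1 line left out, the ranges that crossed 0 between spindle and non-spindle lines were -0.04 to 0.48 for Dusp1, -0.22 to 0.11 for Dusp6, -0.31 to 0.06 for Spry1 and -0.28 to 0.02 for Spry2. Between non-spindle and keratinocyte lines they were -0.53 to 1.15 for Dusp1, -0.46 to 0.02 for Dusp6, -0.13 to 0.38 for Spry1, -0.34 to 1.51 for Spry2 and -0.48 to 0.42 for Spred1. Between spindle and keratinocyte lines they were -0.39 to 1.29 for Dusp1, -0.05 to 0.89 for Dusp5, -0.27 to 0.24 for Spry1, -0.43 to 1.41 for Spry2 and -0.12 to 0.78 for Spred1. In the Spretus-cross comparison they were -0.57 to 0.14 for Dusp5 and -0.03 to 0.12 for Spred1.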
